A study of Oryzias latipes with 60 samples.

Results

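The comparison described here is between 5 xmrk transgenic medaka kept for 5 days in a petri dish with DMSO and 5 xmrk transgenic medaka that stayed in ordinary housing and received nothing. The libraries were chosen by their labels, as the 5 transgenic DMSO fish (fish 53 to 57) and the 5 transgenic untreated fish (fish 73 to 77), and they are 10 of the 60 libraries of the series. The other 50 libraries come from wild-type fish and from transgenic fish given saline, cisplatin or trametinib. Medaka (Oryzias latipes) is a small fish of fresh water that serves as a laboratory vertebrate. All 10 fish were juveniles aged 3 to 4 weeks and about 10 mm long, all carried the xmrk transgene, and RNA was taken from the whole fish with an RNA integrity number above 8.0. DMSO is a solvent in common use for drugs such as trametinib, and the labels call the DMSO fish a vehicle control. The labels give no concentration of DMSO and no promoter for the transgene, and they do not say whether any fish carried a tumour.

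Xmrk is a mutated copy of the epidermal growth factor receptor gene of Xiphophorus fish whose product signals without ligand and drives pigment cell tumours in Xiphophorus hybrids. Medaka that carry xmrk are used as a model of such tumours. A whole-fish RNA sample mixes all organs, so a gene's level depends both on how many cells of each type a fish has and on how much RNA each cell makes, and these cannot be told apart. DMSO passes through membranes readily, and a fish in a dish also meets another volume of water, feeding and handling than in a tank. The dish, the vehicle, the handling, the day of collection and any batch of libraries all go with the group, so that these cannot be told apart in any difference given below.

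Genes are known here only by Ensembl identifiers, none of which could be paired with a symbol (0 of 20459), so nothing is said about what a named gene encodes. Reads of xmrk could not be looked up and the fish could not be checked with markers of organs or pigment cells. Levels are given as CPM, a gene's count scaled to the size of its library, and are not divided by gene length. A pair of genes that differ between the genotypes in ordinary housing was taken from an earlier analysis of these data. Untreated fish show this difference by the choice of the genes, so their levels are no check of their labels. Both genes stood in the 10 transgenic fish as their labels say. They did not do so in all fish labelled wild type that are set beside them. ENSORLG00000000443 lay at 3.38 to 8.34 CPM in the transgenic DMSO fish and 6.32 to 11.4 CPM in the transgenic untreated fish, against 0.0169 to 0.0638 CPM in untreated wild-type fish. ENSORLG00000019887 lay at 0 to 0.0936 CPM and 0 to 0.104 CPM in the same transgenic groups, against 8.66 to 14.4 CPM in untreated wild-type fish. Of the 5 fish labelled wild-type DMSO, fish 44 had the transgenic pattern at both genes, with ENSORLG00000000443 at 4.49 CPM (248 reads) and ENSORLG00000019887 at 0.0725 CPM (4 reads). Fish 43 had ENSORLG00000019887 at 0.0358 CPM (2 reads) and ENSORLG00000000443 at 0.0179 CPM, so it stood with the transgenic fish at the former gene only. Wild-type saline fish 35 had ENSORLG00000000443 at 3.06 CPM and ENSORLG00000019887 at 19.4 CPM. Wild-type cisplatin fish 40 had ENSORLG00000000443 at 6.48 CPM (237 reads) and ENSORLG00000019887 at 36.2 CPM. Wild-type cisplatin fish 41 had ENSORLG00000019887 at 0.487 CPM (23 reads) and ENSORLG00000000443 at 0.0212 CPM. Whether these genes mark the transgene was not tested. Most results that rest on fish 43, 44 or 35 are given with and without them, as an alternative chosen after the data were seen. Results that include the wild-type cisplatin fish are given with fish 40 and 41 only.

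Total counts of the 10 libraries ran from 40578657 to 66449277. None of the 20 pairs of libraries within a group came near sampling noise, the lowest chi-square being 43.9 per gene.

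The transcriptomes of the DMSO fish and of the untreated fish differed in many of the genes measured, and most of the changes were moderate in size. Genes lower in DMSO fish outnumbered those higher (44.4% of the calls were higher), but not with library totals in place of TMM factors, where 50.8% were higher. Of 18623 genes tested, 4864 were called, which is 26.1%. Called means an adjusted p under 0.05 in the quasi-likelihood F test of edgeR, after Benjamini-Hochberg correction over all genes tested. Of these, 2161 were higher in DMSO fish (11.6% of the genes tested) and 2703 were lower (14.5%). The number of genes at an unadjusted p under 0.05 was 6680, and 1836 genes had too few reads to be tested. The median log2 fold change over all genes tested was 0.04, and 0.10 with library totals. TMM scaling itself draws this value towards 0, so it is no check of the scale. The wild-type fish thus entered the filter, the TMM factors and the estimate of the spread behind these calls. The 10 transgenic fish fitted alone gave 5917 calls among 18380 genes (32.2%). The fit of both genotypes without wild-type DMSO fish 47 gave 5812 calls. The 60 libraries fitted together gave 2057 calls in place of 4864.

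Most of the called genes separated the groups fish by fish. Over all genes tested, the ranges of the 5 DMSO and 5 untreated fish did not overlap in 4564 genes, or 24.5%, with 2307 of them higher and 2257 lower in DMSO fish. Among the called genes, 1744 of those higher in DMSO fish (80.7%) and 2050 of those lower (75.8%) showed no overlap. The called genes whose ranges did overlap numbered 1070. In these, DMSO fish 56 lay within the range of the untreated fish for 509 genes (47.6%) and DMSO fish 57 for 343 genes (32.1%), while DMSO fish 53, 54 and 55 did so for 168, 190 and 189 genes. Fish 56 was thus the DMSO fish that fell most often among the untreated fish, and it was also the DMSO library with the lowest total. Untreated fish 73 to 77 lay within the range of the DMSO fish for 369, 300, 343, 407 and 205 of the 1070 genes.

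The size of the changes was much alike in both directions. The median fold of the called genes was 1.63 among those higher and 1.63 among those lower, with the 10th to 90th percentiles at 1.33 to 2.64 and 1.31 to 2.53. At least a 2-fold difference was found in 1159 called genes (6.22% of those tested), 516 higher and 643 lower. At least 4-fold changes were found in 91 genes higher and 85 lower, at least 8-fold in 25 and 17, and at least 16-fold in 13 and 4. Of the 176 genes called at 4-fold or more, 148 showed no overlap between the groups, 72 of them higher and 76 lower in DMSO fish. No called gene was without reads in all fish of either group, so every fold rests on reads in both. The largest fold at any level was 355 upward and 26.3 downward, in genes with a mean log2 CPM of -1.46 and -0.42, which lay below the level required of the genes named here.

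**Figure D1:**
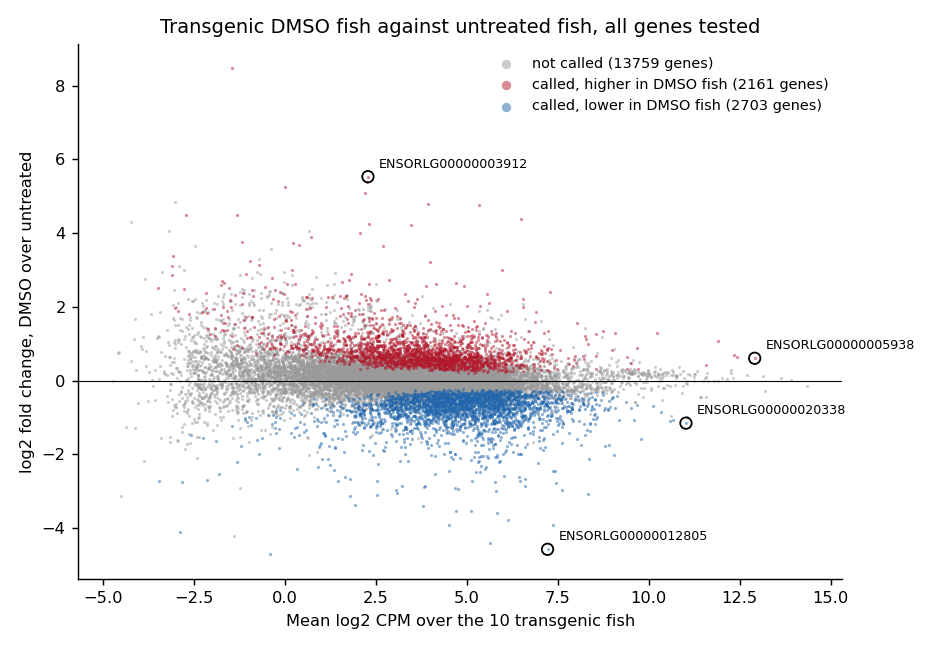
Each point is 1 of the 18623 genes tested, with its mean log2 CPM over the 10 transgenic fish on the x axis and its log2 fold change of DMSO over untreated fish on the y axis. Genes called higher in DMSO fish (2161) are red, genes called lower (2703) are blue, genes not called are grey, and the 4 circled genes are those described fish by fish.

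The direction of the calls varied with how many reads a gene had. Among the 1712 genes with a mean log2 CPM under 0, 6.07% were called higher in DMSO fish and 1.93% lower, and between 0 and 2 the shares were 9.42% and 3.75% of 2856 genes. Between 2 and 4 they were 14.4% and 11% of 5951 genes. In all 3 of these classes the genes called higher outnumbered those called lower. Between 4 and 6 the order was the other way, with 12.8% higher and 21.9% lower of 6030 genes, and between 6 and 8 it was 8.14% against 31.2% of 1647 genes. Genes with a mean log2 CPM of 8 to 10 had 5.12% higher and 20.5% lower of 332 genes. In the 95 genes at 10 or above, both shares were 6.32%. The genes called lower accordingly had a higher median of the mean log2 CPM (4.85) than the genes called higher (3.72), against 3.66 for all genes tested.

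**Figure D2:**
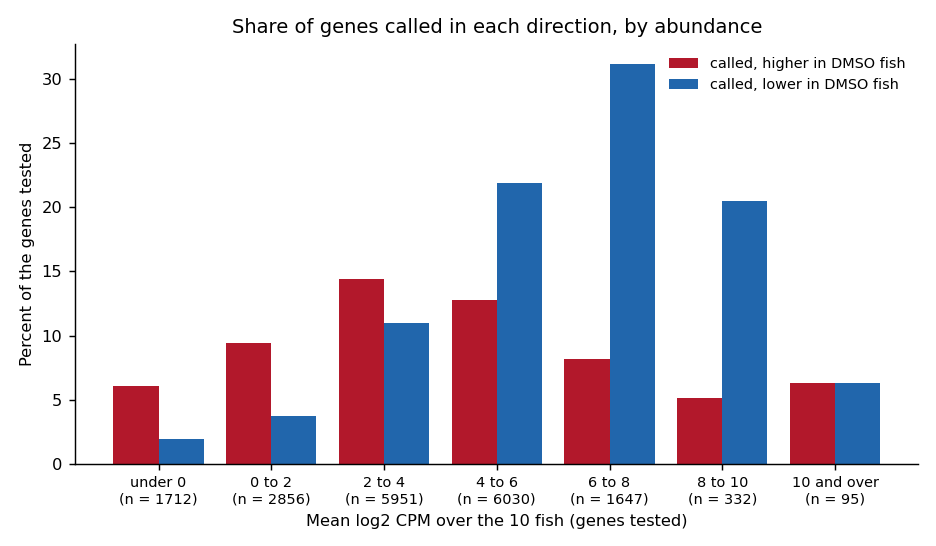
The x axis gives classes of genes by their mean log2 CPM over the 10 transgenic fish, with the number of genes tested in each, and the bars give the percent of those genes called higher (red) or lower (blue) in DMSO fish. Red bars are the taller ones below a log2 CPM of 4 and blue bars from 4 to 10, where the blue bar reaches 31.2%.

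The most abundant genes took a somewhat larger mean share of the counts in DMSO fish, a difference that passed the adjusted threshold for the 100 but not for the 10 most abundant genes of each library. The 100 genes most abundant over the 10 fish took 31.6% ± 1.09 (SD, n = 5) in DMSO fish and 29.5% ± 0.982 (SD, n = 5) in untreated fish. Of these 100 genes, 6 were called higher and 7 lower, against 11.6% and 14.5% of all genes tested. The share of each library's own 10 most abundant genes was 11.98% ± 0.763 in DMSO fish and 10.8% ± 0.588 in untreated fish (SD, n = 5 each). Its two-sided exact permutation p was 0.0317, and the p adjusted over the 5 library measures compared was 0.159, where 0.00794 is the smallest p this design can give. Without DMSO fish 56 the gap of 1.21 percentage points became 1.47, with an adjusted p of 0.0397 by the exact test. Leaving out any one of the other 9 fish did not bring it past the threshold. In those the gap went down to 0.959 and the adjusted p up to 0.278 by the same test. By the 100 most abundant genes of each library, the shares were 32.1% ± 0.870 and 29.8% ± 1.04 (SD, n = 5 each), with an exact permutation p of 0.00794 and an adjusted p of 0.0397.

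None of the other 4 library measures passed the test. Totals were 49066854 ± 5478222 counts in DMSO fish and 54817790 ± 6906263 in untreated fish (SD, n = 5 each; exact permutation p = 0.198, adjusted p = 0.331). TMM factors, which scale libraries for composition, were 1.04 ± 0.0196 and 1.00 ± 0.0400 (n = 5 each; exact permutation p = 0.0952, adjusted p = 0.238). Genes with at least 1 read numbered 19292 ± 41.4 and 19283 ± 49.9 (n = 5 each; exact permutation p = 0.802, adjusted p = 0.905). The median distance of a fish from the mean of the other fish of its group, on the log2 CPM scale, was 0.201 ± 0.0544 in DMSO fish and 0.191 ± 0.0150 in untreated fish (n = 5 each; exact permutation p = 0.905, adjusted p = 0.905). Within the DMSO group, fish 56 stood at 0.296 and the other 4 fish at 0.160 to 0.191. The median SD of a gene's log2 CPM was 0.249 over DMSO fish and 0.228 over untreated fish, and 56.0% of genes had the larger SD in DMSO fish.

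A gene was named in each direction for the largest fold change and for the largest difference in mean CPM, among called genes with a mean log2 CPM of at least 1 and no overlap between the groups. These conditions left 1604 genes that were higher in DMSO fish and 2021 that were lower. Because these 4 genes were picked by size, their values in the transgenic DMSO and untreated fish describe the upper end of the response, not a typical gene.

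ENSORLG00000003912 had the largest rise by fold. In the DMSO fish 53 to 57 it lay at 84.3, 5.21, 94.6, 11.9 and 28.9 CPM, and in the untreated fish 73 to 77 at 1.18, 1.04, 1.36, 0.816 and 0.281 CPM. Every DMSO fish was above every untreated fish, but the DMSO fish differed widely among themselves, with fish 54 and 56 the lowest. The means were 44.97 ± 41.7 and 0.935 ± 0.417 CPM (SD, n = 5 each), and the log2 fold change was 5.53 (SE 0.76), a 46.3-fold rise with an adjusted p of 3.44e-05 in edgeR. The reads behind the untreated values numbered 17 to 99 per fish.

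ENSORLG00000005938 had the largest rise in CPM. Its levels were 8409, 11000, 9401, 8462 and 11420 CPM in DMSO fish 53 to 57 and 5415, 5859, 7268, 6980 and 5507 CPM in untreated fish 73 to 77. The groups were separate by a narrow margin, from 7268 to 8409 CPM. The means were 9737 ± 1406 and 6206 ± 861 CPM (SD, n = 5 each). The edgeR fit gave a 1.52-fold rise, on the log2 scale 0.61 (SE 0.17), with an adjusted p of 0.00986. With all 60 libraries in 1 fit the adjusted p was 0.0681.

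ENSORLG00000012805 had the largest fall by fold. It lay at 23.3, 20.1, 25.3, 33.3 and 72.9 CPM in DMSO fish 53 to 57 and at 1082, 524.2, 1460, 663.2 and 331.7 CPM in untreated fish 73 to 77. The highest DMSO fish (fish 57) was well below the lowest untreated fish (fish 77), and the untreated fish themselves spanned 331.7 to 1460 CPM. The means were 34.95 ± 21.7 and 812 ± 455 CPM (SD, n = 5 each). In the edgeR fit the gene was 23.9-fold lower in DMSO fish. Its log2 fold change was -4.58 (SE 0.54), with an adjusted p of 5.12e-06 in edgeR.

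ENSORLG00000020338 had the largest fall in CPM. Its levels were 1664, 2024, 1342, 616 and 1860 CPM in DMSO fish 53 to 57 and 2543, 3475, 2192, 2953 and 4985 CPM in untreated fish 73 to 77. The groups did not overlap, although fish 54 and fish 75 came close, and fish 56 was the lowest of all. The means were 1501 ± 556 and 3230 ± 1092 CPM (SD, n = 5 each). In the edgeR fit the gene was 2.23-fold lower, with a log2 fold change of -1.16 (SE 0.40) and an adjusted p of 0.0372. This call was lost when any one of fish 53, 55, 56, 74, 76 and 77 was left out, with adjusted p from 0.0512 to 0.111, and in the fit of all 60 libraries, with an adjusted p of 0.302.

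**Figure D3:**
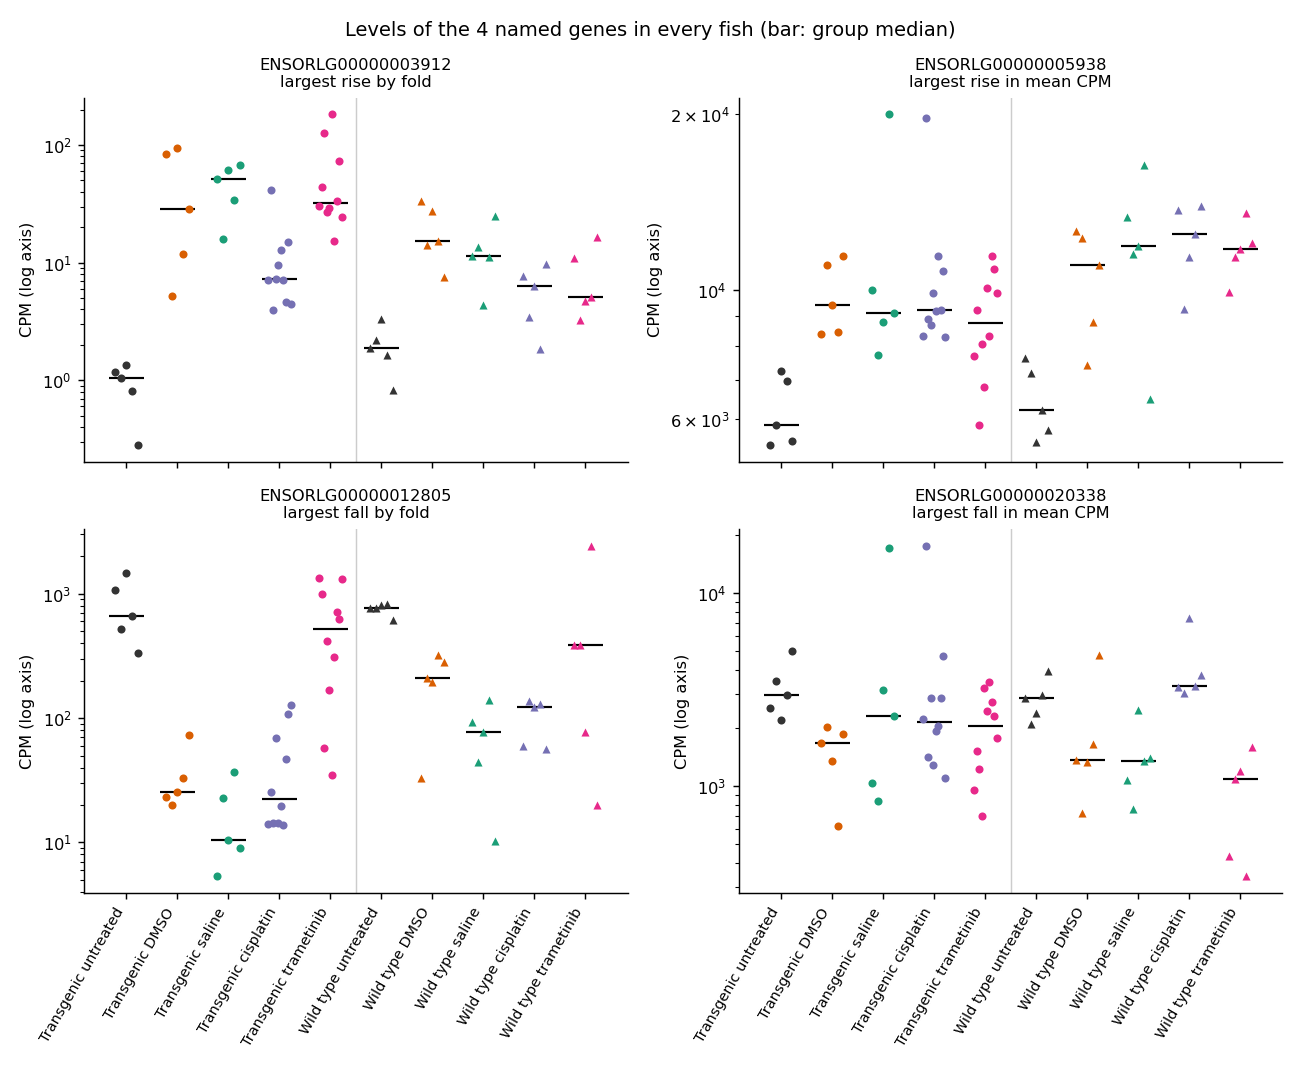
The y axis gives CPM on a log axis for the 4 genes named by fold or by difference in CPM, with each point a fish, circles for transgenic and triangles for wild-type fish, colours for the treatment and a bar at the group median. For ENSORLG00000012805 all transgenic DMSO fish lie at or below 72.9 CPM and all transgenic untreated fish at or above 331.7 CPM.

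Fish labelled wild type and kept in the same ways were set beside the transgenic fish, with the reservation that fish 44 went against this label at both genes given above and fish 43 at ENSORLG00000019887. For this, the 10 transgenic fish and the 10 wild-type DMSO and untreated fish were each fitted alone, so that the fits share neither a library nor an estimate of the spread. The transgenic fit called 5917 of 18380 genes (32.2%), with 2585 higher (14.1%) and 3332 lower (18.1%) in DMSO fish. The wild-type fit called 5458 of 18348 genes (29.7%). Of the 5906 transgenic calls that were tested in wild-type fish, 90.2% kept their sign there, against 71.1% of all genes tested in both. Of these, 3302 were also called in wild-type fish in the same direction, which is 55.9% of the transgenic calls and 60.5% of the wild-type calls, and 18 were called in the opposite direction. Without fish 43 and 44, the fit of wild-type fish called 5709 of 18484 genes (30.9%). The share of transgenic calls that kept their sign was then 84.2% of 5910, against 65.8% of all genes, with 2967 called in the same direction (50.2% of the transgenic and 51.97% of the wild-type calls) and 67 in the opposite one.

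The genes that rose with DMSO in transgenic fish and those that fell were compared with wild-type fish separately. Of 2576 genes called higher, 92.6% were also above 0 in wild-type fish, against 50.7% of all genes tested there. Called higher there too were 1578 (61.3%), against 3111 of all 18348 genes. The median log2 fold change was 0.63 in transgenic and 0.72 in wild-type fish. Of 3330 genes called lower, 88.3% were also below 0, against 49.3% of all genes. Called lower there too were 1724 (51.8%), against 2347 of all 18348 genes. Their medians were -0.65 in transgenic and -0.51 in wild-type fish. Medians in the transgenic fish belong to the fish in which the genes were chosen, and those in wild-type fish do not. Of the genes called at 4-fold or more in transgenic fish, 76 of 77 that were higher kept their sign in wild-type fish, with medians of 2.52 and 2.32. Among those that were lower, 73 of 85 did so, with medians of -2.43 and -1.25. The shares of all genes to set beside these are again 50.7% above and 49.3% below 0. Without fish 43 and 44, 87.5% of the genes called higher and 81.7% of those called lower kept their sign, with wild-type medians of 0.74 and -0.47. Of all genes tested in that wild-type fit, 48.7% were above and 51.3% below 0. Of the genes at 4-fold or more, 74 of 78 higher and 73 of 86 lower then kept their sign, with wild-type medians of 2.08 and -1.52.

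**Figure D4:**
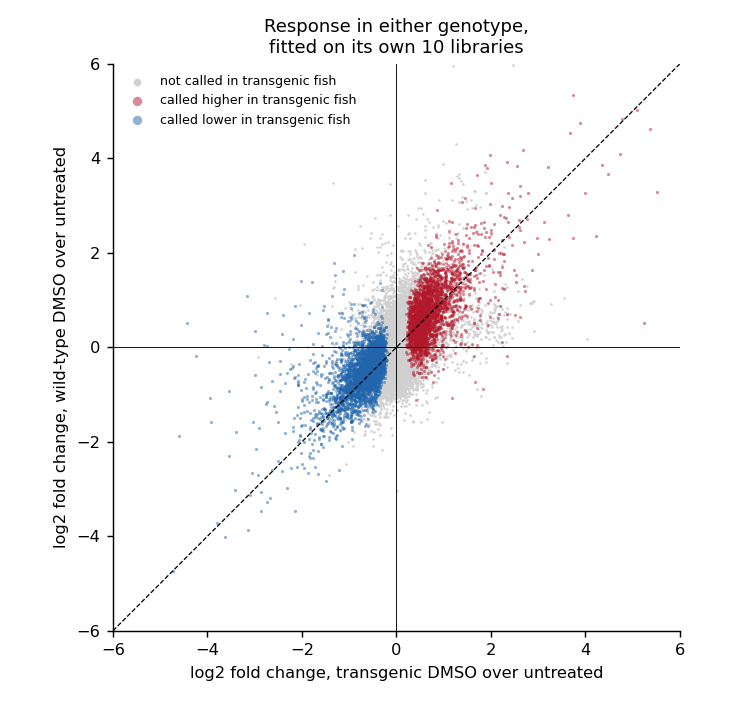
Each point is a gene, with its log2 fold change of DMSO over untreated in transgenic fish on the x axis and in wild-type fish on the y axis, each from a fit on its own 10 libraries, and 3 genes beyond 6 on either axis are not shown. Genes called higher (red) or lower (blue) in transgenic fish lie mostly on the same side of 0 in wild-type fish, 92.6% and 88.3% of them. Of all genes tested in wild-type fish, 50.7% were above and 49.3% below 0.

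Of the 4 genes named by size, 3 passed the test in wild-type DMSO fish as well, in the same direction as in transgenic fish. ENSORLG00000003912 lay at 19.6 ± 10.6 CPM in wild-type DMSO fish and 1.97 ± 0.910 CPM in wild-type untreated fish (SD, n = 5 each), a log2 fold change of 3.29 (SE 0.46) with an adjusted p of 0.000512 in edgeR. ENSORLG00000012805 lay at 208 ± 111 and 757 ± 86.2 CPM (SD, n = 5 each), a log2 fold change of -1.88 with an adjusted p of 0.00987. With all 60 libraries in 1 fit its adjusted p was 0.106. ENSORLG00000005938 had a log2 fold change of 0.67 and an adjusted p of 0.0305, and it was not called with library totals (adjusted p = 0.0906) or without any one of wild-type fish 43, 44, 69, 70, 71 and 72 (adjusted p from 0.0503 to 0.0792). The fourth gene, ENSORLG00000020338, had -0.55 with an adjusted p of 0.365, and -1.19 with an adjusted p of 0.0059 without wild-type DMSO fish 47, whose level was 4779 CPM. Without fish 43 and 44, ENSORLG00000003912 (3.08, adjusted p = 0.00189) and ENSORLG00000012805 (-1.52, adjusted p = 0.00115) were still called, and ENSORLG00000005938 (0.49, adjusted p = 0.103) and ENSORLG00000020338 (-0.15, adjusted p = 0.796) were not.

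A direct test of the difference of the DMSO response between the genotypes, in a model of all 20 fish, called 60 of 18623 genes (0.322%), with 3162 at an unadjusted p under 0.05. The difference was positive, meaning a response more upward in transgenic fish, in 7 genes (0.0376%), and negative in 53 (0.285%). This count depended strongly on the tool and on single fish. It was 617 with DESeq2, 9 with limma-voom, and 0 with library totals in place of TMM factors. Leaving out 1 fish gave 1 to 261 genes, with 261 without wild-type DMSO fish 43 and 1 each without transgenic DMSO fish 57, wild-type untreated fish 68 and wild-type untreated fish 71. Without fish 44 it was 74, with 47 of the 60 among them. Without both fish 43 and fish 44, the fish labelled wild-type DMSO that went against this label at a genotype gene, 1776 of 18729 genes were called (9.48%), 460 with a positive and 1316 with a negative difference and with all 60 among them. The number of genes whose response differed between the genotypes therefore depends on the tool and on which fish are included, fish 43 and 44 among them. These fish were left out but never counted as transgenic, and no other pair of fish was left out. Whether the change in the count comes from their genotype was not tested, and whether their labels are right could not be settled here. The 4 genes named by size were not among the 60. The difference was 2.24 (SE 0.92, adjusted p = 0.239) for ENSORLG00000003912 and -2.69 (SE 0.67, adjusted p = 0.0788) for ENSORLG00000012805 in edgeR, on the log2 scale. The latter was called with DESeq2 (adjusted p = 0.00282), without wild-type DMSO fish 43 (adjusted p = 0.0104) and without both fish 43 and 44 (-3.04, adjusted p = 0.00722).

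With all 20 fish, the genes called for the difference were mostly ones that fell or were not called in transgenic fish and rose or were not called in fish labelled wild type. Of the 53 genes with a negative difference, 24 were called higher with DMSO in wild-type fish and not called in transgenic fish. A further 13 fell in transgenic fish and were not called in wild-type fish, 10 fell in transgenic and rose in wild-type fish, 3 fell in both and 3 rose in both. The median log2 fold change of the 53 was -0.55 in transgenic and 0.96 in wild-type fish. Of the 7 with a positive difference, 2 rose in transgenic and fell in wild-type fish, 2 fell in wild-type fish only by call, 2 rose in transgenic fish only by call and 1 fell in both. Their median was 0.39 in transgenic and -0.63 in wild-type fish. The sizes of the 60 differences ran from 0.58 to 3.39. Without fish 43 and 44, the largest classes of the 1776 genes were 779 that rose in wild-type fish and were not called in transgenic fish, and 308 that fell in wild-type fish and were not called in transgenic fish.

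Among the 60 genes, the largest difference of response in each direction by the naming rule was in ENSORLG00000013959 and ENSORLG00000004253. ENSORLG00000013959 lay at 101.9, 63.6, 104.4, 127.7 and 195.2 CPM in transgenic DMSO fish 53 to 57 and at 127.9, 120, 161, 122.2 and 174.2 CPM in transgenic untreated fish 73 to 77. In wild-type fish it lay at 124, 99.4, 58.2, 57.2 and 75.3 CPM with DMSO (fish 43 to 47) and at 531.6, 314.2, 436.1, 278 and 288.4 CPM without (fish 68 to 72). The transgenic groups overlapped and the wild-type groups did not, the untreated wild-type fish being the group that stood high. In the edgeR fit of all 20 fish its log2 fold change was -0.29 (adjusted p = 0.477) in transgenic and -2.18 (adjusted p = 7.12e-06) in wild-type fish. The difference in that fit was 1.89 (SE 0.39, adjusted p = 0.045). In the fit of wild-type fish alone the adjusted p of the wild-type fall was 0.000317.

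ENSORLG00000004253 moved in opposite directions in the genotypes. It lay at 27.6, 39.7, 58.2, 81.1 and 35.01 CPM in transgenic DMSO fish 53 to 57 and at 204.3, 189.4, 362.9, 116.7 and 59.8 CPM in transgenic untreated fish 73 to 77. In wild-type fish it lay at 50.7, 180, 134, 286.9 and 277.8 CPM with DMSO (fish 43 to 47) and at 57.9, 133.5, 59.5, 35.03 and 60.1 CPM without (fish 68 to 72). The groups overlapped in both genotypes, through transgenic fish 56 and 77 and through wild-type fish 43 and 69. In the edgeR fit of all 20 fish the log2 fold change was -1.99 (SE 0.50, adjusted p = 0.00562) in transgenic and 1.40 (adjusted p = 0.0301) in wild-type fish. The difference in that fit was -3.39 (SE 0.70, adjusted p = 0.0459). In the fit of wild-type fish alone the wild-type rise was 1.41 (adjusted p = 0.0398). That call was lost without any one of fish 44, 46, 47, 68, 70, 71 and 72 (adjusted p from 0.0588 to 0.0966). Both of these differences were lost under most of the alternatives tried, with the sizes at 1.63 to 2.28 for ENSORLG00000013959 and -3.77 to -3.00 for ENSORLG00000004253. Without fish 43 and 44 they were 2.28 (adjusted p = 0.00538) and -3.71 (adjusted p = 0.00722).

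Fish kept in a dish without DMSO were available as the saline groups, which the labels also call a vehicle control. Wild-type saline fish share no library with the transgenic fish, but their untreated controls are those of the wild-type DMSO fit. The shares found in wild-type DMSO and in wild-type saline fish are thus not independent of each other. The fit of wild-type saline fish called 7660 of 18373 genes (41.7%) against wild-type untreated fish. Of the 5908 transgenic DMSO calls tested there, 96.9% kept their sign in wild-type saline fish, against 80.2% of all genes. Of these, 4606 were called in the same direction, which is 78.0% of the transgenic DMSO calls and 60.1% of the wild-type saline calls, and 12 were called in the opposite direction. The median log2 fold change of the genes that rose in transgenic DMSO fish was 0.63 there and 0.62 in wild-type saline fish, and that of the genes that fell was -0.65 and -0.61. Of the genes at 4-fold or more in transgenic DMSO fish, 76 of 77 higher and 81 of 85 lower kept their sign in wild-type saline fish, with medians of 2.07 and -1.97. Of all genes tested in wild-type saline fish, 53.5% were above and 46.5% below 0. Without saline fish 35, 7107 of 18459 genes were called in wild-type fish (38.5%). Of the transgenic DMSO calls, 96.7% then kept their sign, against 80.1% of all genes, with 4440 called in the same direction. Of the genes at 4-fold or more, 77 of 78 higher and 81 of 85 lower then kept their sign, with medians of 2.07 and -1.95. Of all genes tested, 53.3% were then above and 46.7% below 0.

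Transgenic saline fish share their untreated controls with the transgenic DMSO fish, so no overlap was counted, and only the values of the named genes are set side by side. In that comparison 5464 of 18632 genes were called (29.3%). ENSORLG00000003912 lay at 45.9 ± 21.0 CPM in transgenic saline fish (SD, n = 5), which put its log2 fold change at 5.59 (adjusted p = 2.54e-06 in edgeR) against 5.53 with DMSO. ENSORLG00000012805 lay at 16.9 ± 13.1 CPM (SD, n = 5), with a log2 fold change of -5.61 (adjusted p = 1.69e-05) against -4.58 with DMSO. ENSORLG00000005938 had 0.82 (adjusted p = 0.044) against 0.61 with DMSO. That value was 0.48 (adjusted p = 0.0616) without saline fish 17, 0.25 (adjusted p = 0.458) with library totals and 0.84 (adjusted p = 0.204) in the fit of its own 10 libraries. Leaving out any one of the untreated fish 73 to 77 also lost that call, with adjusted p from 0.0504 to 0.0954. ENSORLG00000020338 had 0.56 (adjusted p = 0.502) against -1.16 with DMSO. That gene stood at 17030 CPM in saline fish 17, and without this fish its log2 fold change was -0.87 (adjusted p = 0.0749). In wild-type saline fish against wild-type untreated fish, the same gene was called lower, at -1.06 (adjusted p = 0.0117 in edgeR). It stayed called in all 17 alternatives, with log2 fold changes from -1.36 to -0.92. The other genes named by size were called in wild-type saline fish too, in the same direction as with DMSO. ENSORLG00000003912 had 2.68 (adjusted p = 0.0013), ENSORLG00000005938 0.84 (adjusted p = 0.00626) and ENSORLG00000012805 -3.42 (adjusted p = 0.00112). Of the genes named for the difference of response, ENSORLG00000013959 had -0.23 (adjusted p = 0.482) in transgenic and -2.36 (adjusted p = 2.49e-05) in wild-type saline fish in edgeR. ENSORLG00000004253 had -0.71 (adjusted p = 0.301) in transgenic and 0.50 (adjusted p = 0.224) in wild-type saline fish, and was called in neither. Whether the saline response differs between the genotypes was not tested.

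The drug groups shared the dish as well, and the named genes did not all keep their DMSO levels in them. ENSORLG00000012805 lay at 13.9 to 127 CPM in the 10 transgenic cisplatin fish but at 35.1 to 1344 CPM, with a median of 523, in the 10 transgenic trametinib fish. The 5 wild-type trametinib fish lay at 20.1 to 2446 CPM with a median of 387. The transgenic trametinib fish, which were kept in a dish as well, thus spanned the range from the DMSO level to the untreated level. The wild-type trametinib fish went beyond it at both ends. The lowest wild-type DMSO fish lay at 33.1 CPM and the highest wild-type untreated fish at 829.7 CPM. ENSORLG00000003912 lay at 3.99 to 41.9 CPM (median 7.23) in transgenic cisplatin fish and at 15.3 to 182 CPM (median 31.9) in transgenic trametinib fish, all above the highest transgenic untreated fish. In wild-type fish it lay at 1.86 to 9.73 CPM with cisplatin and 3.27 to 16.5 CPM with trametinib. The lowest fish of each group, cisplatin fish 41 and trametinib fish 49, lay within the wild-type untreated range of 0.822 to 3.32 CPM. The other fish of both groups lay above that range, the lowest of them cisplatin fish 39 at 3.44 CPM. Fish 41 also went against its wild-type label at ENSORLG00000019887, as given above.

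The share of the counts taken by the called genes shows the same shift fish by fish. The 2585 genes called higher on the 10 transgenic fish took 8.45% ± 0.262 of the counts in untreated and 14.1% ± 0.436 in DMSO fish (SD, n = 5 each), and the 3332 genes called lower took 28.3% ± 0.402 and 17.9% ± 0.595. Since these 10 fish chose the genes, these values describe the choice and are given with no test. In wild-type fish, which did not enter the choice, the genes called higher took 8.89% ± 0.409 untreated and 13.8% ± 0.600 with DMSO, and the genes called lower took 28.7% ± 0.868 and 17.3% ± 0.919 (SD, n = 5 each). Without fish 43 and 44, the wild-type DMSO fish lay at 13.1% to 13.6% for the genes called higher and 16.2% to 18.7% for those called lower. In wild-type saline fish the shares were 14.6% ± 0.914 and 17.3% ± 0.366 (SD, n = 5). In the transgenic saline, cisplatin and trametinib fish, the genes called higher took 10.8% to 14.2%, 11.9% to 15.1% and 11.5% to 15.0%. The genes called lower took 11.7% to 19.3%, 12.5% to 18.7% and 16.8% to 21.2%. In both lists the lowest saline value was that of fish 17 and the lowest cisplatin value that of fish 21. Their TMM factors over the 60 libraries were 0.232 and 0.292. The other saline fish lay at 13.2% to 14.2% and 16.4% to 19.3%. The other cisplatin fish lay at 13.1% to 15.1% and 14.2% to 18.7%.

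**Figure D5:**
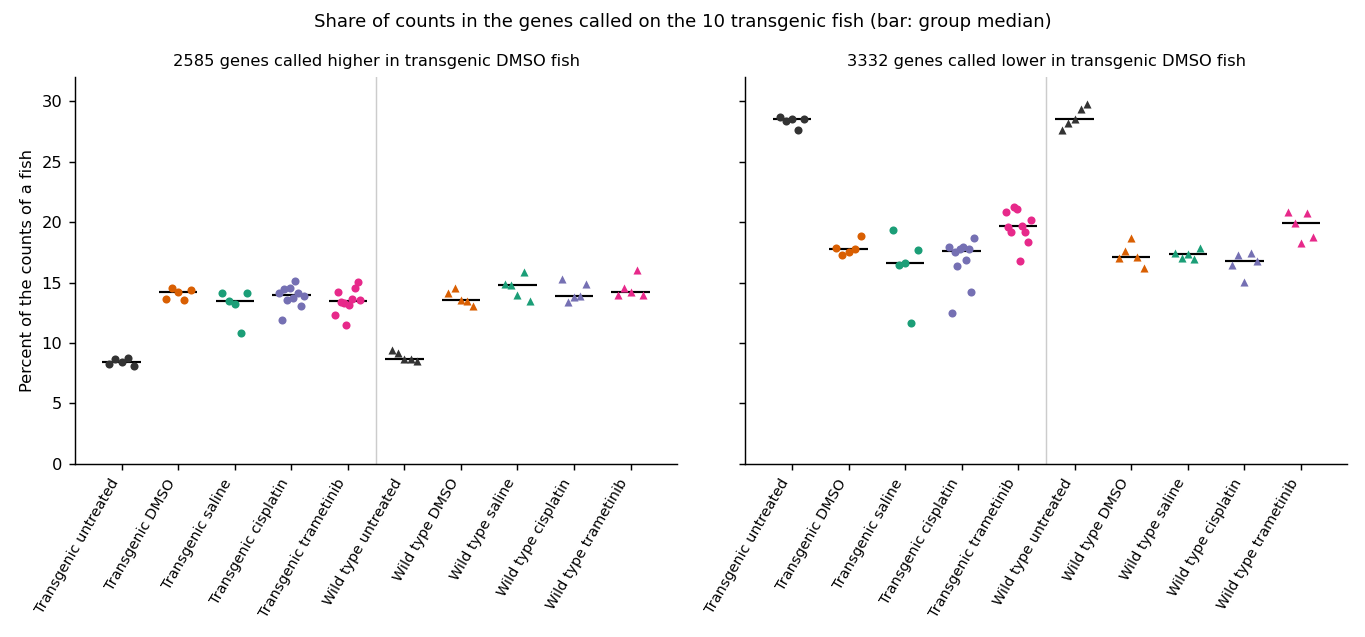
The y axis gives the percent of a fish's counts in the 2585 genes called higher (left) and the 3332 genes called lower (right) on the 10 transgenic DMSO and untreated fish, with each point a fish and a bar at the group median. Untreated fish of both genotypes stand apart from all groups kept in a dish, with 28.3% ± 0.402 and 28.7% ± 0.868 for the genes called lower in transgenic and wild-type untreated fish. The transgenic DMSO and untreated fish chose the genes, and wild-type fish did not enter the choice.

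On the log2 scale the same holds for the mean level of the genes called higher minus that of the genes called lower. This difference of log2 CPM lay at -0.49 to -0.31 in transgenic DMSO fish and -1.96 to -1.88 in transgenic untreated fish. Fish labelled wild-type DMSO lay at -0.63 to -0.48, with fish 43 at -0.48 and fish 44 at -0.53, and wild-type untreated fish at -2.01 to -1.77. All 50 fish kept in a dish, whatever their genotype or treatment, lay at -0.99 or above, and all 10 untreated fish lay at -1.77 or below. The transgenic DMSO and untreated fish chose these genes, so their separation describes the choice. The other transgenic dish fish are set against untreated fish that entered the choice. Wild-type fish, which did not enter it, lay at -0.74 or above in a dish and at -1.77 or below untreated.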

How the data were processed

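RNA from whole fish was sequenced, with 1 library per fish number. The authors deposited raw read counts for 20459 Ensembl genes in 60 columns, each matched to a sample by its name, and per the submitters' processing notes TopHat2 and featureCounts were used. No label or file header used here names the genome build, the annotation or the strand setting, and overlapping genes and near-identical copies are therefore uncertain. Counts were tested in R 4.3.3 with edgeR 4.0.16 (filterByExpr, TMM, robust quasi-likelihood F test, Benjamini-Hochberg over all genes tested) on the 20 untreated and DMSO fish of both genotypes. Standard errors come from the F statistic. CPM values use TMM factors over all 60 libraries, and log2 CPM a prior count of 2. The folds come from the fits, so ratios of mean CPM differ somewhat from them. DESeq2 1.42.0 and limma 3.58.1 (voom) were alternatives, and the test was checked on simulated counts. Library measures were compared by two-sided exact permutation tests. The labels do not say that fish came from separate tanks or clutches, nor how the DMSO fish were spread over dishes. The p-values therefore measure only the spread between these fish. If the DMSO fish shared a dish, they are not separate replicates of the DMSO condition.

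The members, comparisons, gene naming rule and alternatives were chosen with earlier results of these data known. The rule took, in each direction, the called gene with the largest fold change and the one with the largest difference in mean CPM, and for the difference of response the largest in each direction. As 0 of 20459 identifiers matched the 26845 genes of the reference table, lists of pathways and cell type markers could not be used and no sequence is shown. Comparing wild-type saline with untreated fish was added after the data were seen.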

Additional observations from a re-analysis of the deposited data

Results flagged for a closer look

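In 94 groups of 5 or 10 fish looked at, 14 held a value far from the others by Dixon's test for outliers. Its nominal rate of 1 in 20 would give 4.7 for independent groups of normally spread values. The same fish recur across these groups and the spread was not checked, so no excess is read from the 14. In the compared groups, ENSORLG00000012805 stood at 72.87 CPM in DMSO fish 57, the distance of DMSO fish 56 from its group was 0.296, and the TMM factor of untreated fish 73 was 1.07. ENSORLG00000003912 stood at 41.88 CPM in transgenic cisplatin fish 21. ENSORLG00000005938 stood at 19680 CPM in the same fish 21 and at 19950 CPM in transgenic saline fish 17. ENSORLG00000020338 stood at 17610 CPM in fish 21, 17030 CPM in fish 17, 7426 CPM in wild-type cisplatin fish 40 and 4779 CPM in wild-type DMSO fish 47. ENSORLG00000012805 stood at 2446 CPM in wild-type trametinib fish 51, where the genes called higher took 16.0% of the counts. ENSORLG00000004253 stood at 133.5 CPM in wild-type untreated fish 69. The difference of mean log2 CPM between genes called higher and lower was lowest among dish fish in fish 21, at -0.991. Fish 17, 21, 40 and 47 are among the 6 libraries whose TMM factor over the 60 libraries was under 0.8.

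The DMSO response differed between genotypes by the test of the difference in 60 genes, among them ENSORLG00000013959 (1.89) and ENSORLG00000004253 (-3.39) on the log2 scale. Of the 3320 genes called in both genotypes, each fitted alone, 18 had opposite directions, 15 of them lower in transgenic DMSO fish, and 12 of the 18 were also called for the difference. Fish 43 and 44, labelled wild type, entered both counts, and without them 1776 genes were called for the difference.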

How the results depend on the processing

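Calls in transgenic DMSO against untreated fish numbered 4864, and 4122 to 4782 without 1 fish. With all 60 libraries in 1 fit they fell to 2057, of which 2041 were among the 4864, and with the 6 libraries of low TMM factor left out of that fit they numbered 5452. Without fish 47 there were 5812, and without wild-type DMSO fish 43 and 44 5199. In no alternative was a called gene called in the opposite direction. With library totals alone 50.8% of calls were higher, against 44.4%, and the median log2 fold change of all genes was 0.10 against 0.04. The wild-type calls numbered 5458, 3439 with all 60 libraries and 3921 to 5985 without 1 fish. The difference between genotypes had 60 genes, 0 with library totals, 617 with DESeq2, 9 with limma-voom, 0 with all 60 libraries, 1 to 261 without 1 fish and 1776 without fish 43 and 44. The cause was not tested.

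The sign of the difference reversed for ENSORLG00000005938 with library totals (0.22, from -0.07), without fish 43 and 44 (0.14) and, without 1 fish, at 0.000852 and 0.017 with a range of -0.17 to 0.017. For ENSORLG00000020338 it reversed without fish 47 (0.019, from -0.60, in a range of -0.81 to 0.019). In transgenic saline fish, ENSORLG00000020338 (0.56) reversed with library totals (-0.70), limma-voom (-0.10) and without fish 17 (-0.87), with a range of -0.87 to 0.85 without 1 fish. The gap between the groups in what the 10 most abundant genes took was 1.21 percentage points, 2.33 with 100 genes, and 0.959 to 1.47 without 1 fish. Differences between DMSO and untreated fish in genes detected ran from -5.6 to 25.2 and in distance from -0.0129 to 0.0320 without 1 fish.

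No paired analysis was possible because the fish numbers of the groups compared do not recur between groups. At this depth every called gene had reads in both groups.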

Other observations

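ENSORLG00000007271, a gene taken from an earlier analysis of these data, split the fish irrespective of group. It stood at 17.4, 75.9 and 52.4 CPM in DMSO fish 54, 56 and 57 and at 39.5 and 31.7 CPM in untreated fish 73 and 77, while the other 5 of the 10 fish lay at 0.165 to 0.243 CPM. Its log2 fold change between DMSO and untreated fish was 1.00 (SE 1.83) with an adjusted p of 0.746 in edgeR.

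Among called genes of at least 4-fold, the fish of a group varied more in the genes that rose than in those that fell. The median ratio of the highest to the lowest fish was 3.18 over DMSO fish and 3.15 over untreated fish in the genes that were higher (90 and 79 genes with reads in all 5 fish), and 2.36 and 2.33 in the genes that were lower (80 and 85 genes). The ratio also holds counting noise, which is larger in genes with few reads. Genes called higher at any fold had a lower median of the mean log2 CPM (3.72) than those called lower (4.85). The ratios were not compared at equal abundance. This comparison was chosen after the values were seen and was not tested.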
